A study of Mus musculus with 31 samples.

Results

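Transcript levels of 8 genes that carry or modify sex steroid signals were examined in a mouse forebrain region with known sex differences. They are the estrogen receptor gene Esr1, the progesterone receptor gene Pgr, the membrane estrogen receptor gene Gper1, the orphan receptor gene Esrra, the coactivator gene Ncoa1, the estrogen-responsive gene Greb1, and the enzyme genes Hsd17b4 and Hsd17b12. Members were the probes annotated with these gene names, whatever their values. All 8 genes had a named probe among the 11712 genes and unnamed probes tested, and Greb1 had a second one, so that they hold 9 of the 14989 probes kept. All lie on autosomes in the RefSeq table of assembly GRCm38.p6: Hsd17b12 on chromosome 2, Gper1 on 5, Pgr on 9, Esr1 on 10, Ncoa1 and Greb1 on 12, Hsd17b4 on 18 and Esrra on 19. The genes of the androgen receptor, of estrogen receptor beta, of aromatase and of the glucocorticoid receptor are not analysed here, for want of a named probe in the test.

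Estradiol binds receptors of the nuclear type, which then sit on DNA and recruit coactivators of the p160 family, and estrogen receptor alpha in the preoptic area and the bed nucleus of the stria terminalis (BNST) takes part in mating behaviour. In rodents the progesterone receptor of this region is itself induced by estrogen, and the enzyme aromatase makes estradiol there from testosterone. Enzymes of the 17-beta-hydroxysteroid dehydrogenase family convert active steroids into less active forms and back, and several of them also work on fatty acids.

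The study used 31 single-colour Illumina bead arrays, each with labelled RNA from the BNST and preoptic area (BNST/POA) of MF1 mice aged 152 days, from the Sex Chromosome Trisomy model of Klinefelter syndrome. There were 8 XXY males, which carry a second X chromosome beside the Y, 8 XX females, which have ovaries, 7 XX males and 8 XY males. The column names give Sry, the testis-determining gene, to all 3 groups of males, and since the model separates it from the Y chromosome, the XX males have testes without a Y. The series asks whether XXY males, whose partner preference is feminized, are also feminized in gene expression. Within the set of groups, XXY against XY males differ in the number of X chromosomes, XX females against XX males in Sry and gonad type, and XX against XY males in sex chromosomes with testes in both. The labels speak of biological replicates but not of separate animals, and the p-values rest on the spread between the arrays alone. In bulk tissue, fewer cells of a type and less RNA per cell cannot be told apart. The labels give no hormone level, gonadectomy or estrous stage.

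Between 12939 and 14397 of 25697 probes were detected per array. The descriptions put 5 arrays of each group in batch 1 and the other 3 (2 for XX males) in batch 2. Array XX male 6, of batch 1 by its description, lay at 27.7 on the first principal component, where the arrays of batch 2 began at 20.4 and the rest of batch 1 ended at -10.8. The main values of XX males are given without it too, and without it 0 of the 8 genes passed in any comparison. Xist, the RNA of the inactive X chromosome, was 2.80 log2 units higher in XXY than in XY males, and the X-linked Eif2s3x was 0.64 higher. Of the markers listed for preoptic and BNST neurons 11 of 17 were measured, all of them detected on at least 29 arrays. Markers of nearby tissue were detected as well: 8 of 10 listed thalamic genes and 7 of 10 striatal genes were measured, each detected on all 31 arrays, and Pmch, a peptide gene of the lateral hypothalamus, ranged from 8.60 to 14.34 log2 units between arrays.

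None of the 8 genes passed the test in any comparison of groups. Over 7 comparisons, which share groups and so are not independent of each other, 0 of 8 genes passed an adjusted p of 0.05 in limma's moderated test with Benjamini-Hochberg adjustment over all 11712 tests. In the whole table few genes did. The share called was 0.0512% for XXY minus XY males, 0.0683% for XX females minus XY males, 0.0598% for XX minus XY males, 0.0256% for XXY minus XX males and 0.0256% for XX females minus XX males. It was 0.0512% for XXY males minus XX females and 0.0512% for XX females minus the mean of the 3 groups with testes. At these shares a count of 0 among 8 genes is close to the background in each comparison, and it is no result about the steroid genes.

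Without adjustment, 1 of the 56 tests of these genes had a p under 0.05, or 1.79%, against 5.27% of the 81984 tests over all genes. By comparison, in the order above, the share over all genes was 2.75%, 4.23%, 5.63%, 6.55%, 6.73%, 5.35% and 5.68%. The test in question was Esrra in XXY minus XX males. All 56 intervals of 95% lay between -0.66 and 0.61 log2 units, and both of these bounds belong to Greb1 on its brighter probe. On its dimmer probe, described below, the bounds reached -0.87 in XX females minus XX males and 0.89 in XXY males minus XX females. For scale, Kiss1, the kisspeptin gene, was 2.17-fold higher in XX females than in the mean of the groups with testes (adjusted p = 6.79e-05), a result that was known for these arrays when the genes were chosen. Every interval of the 8 genes ended below that size in either direction.

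**Figure D1:**
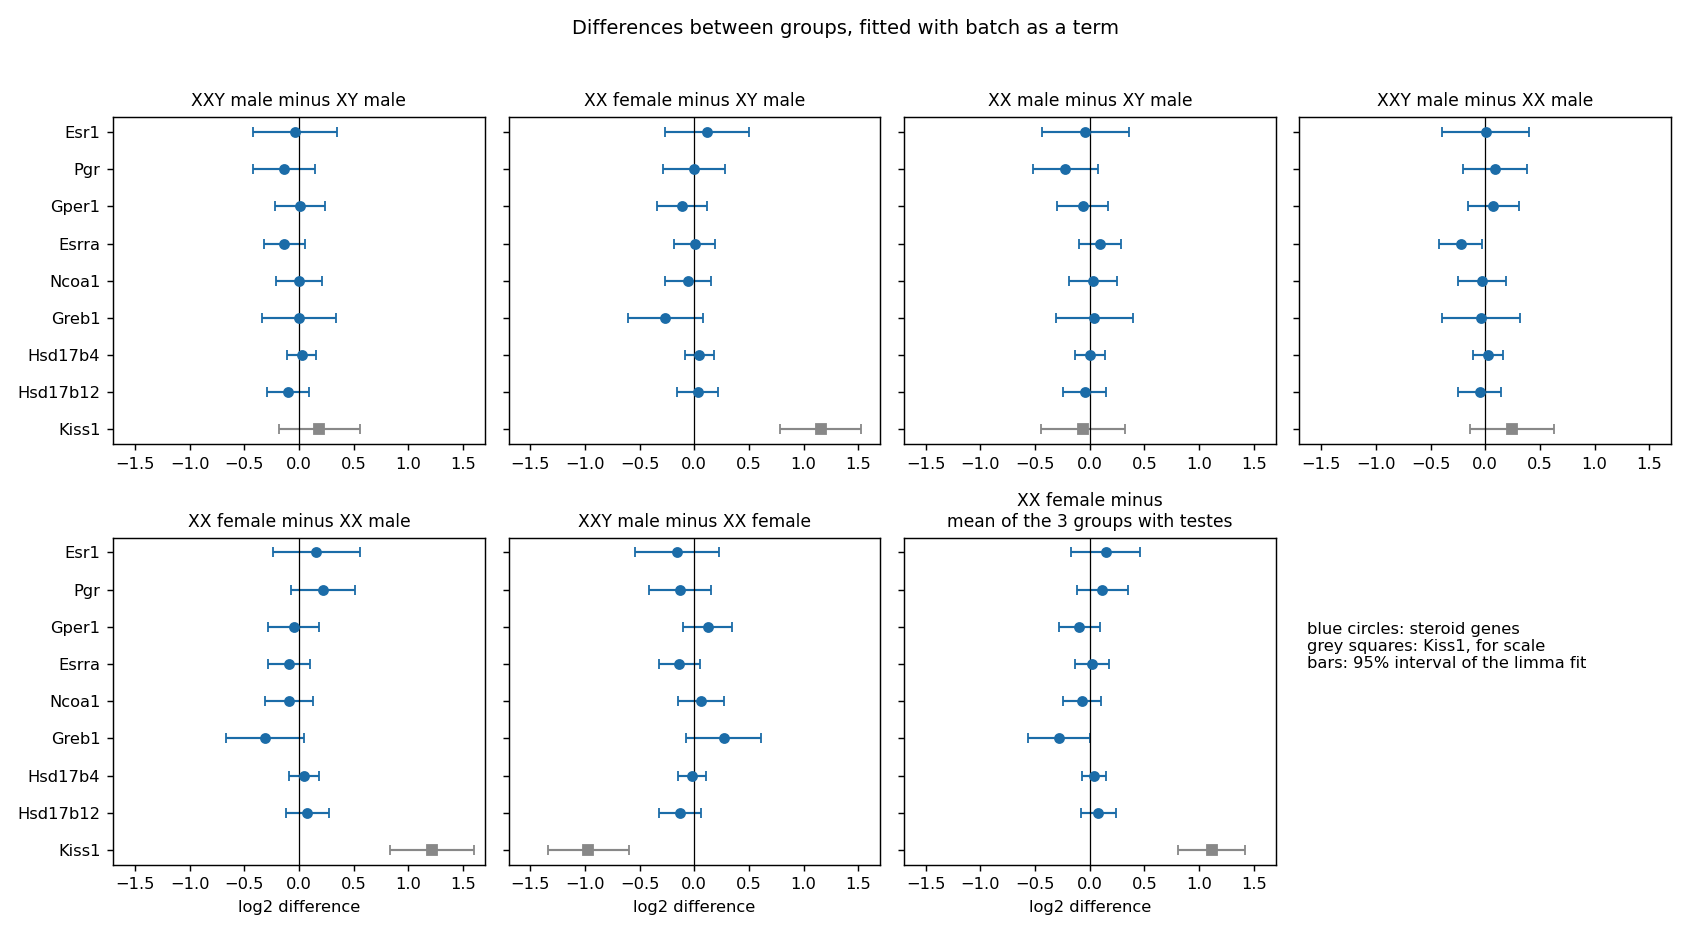
Log2 differences of the 8 steroid genes (blue circles) in 7 comparisons, with 95% intervals of the limma fit with batch as a term; Kiss1 (grey squares) is drawn for scale. The steroid genes, with Greb1 by its brighter probe, lie between -0.31 and 0.27, while Kiss1 reaches 1.22 in XX females minus XX males.

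Esr1 encodes estrogen receptor alpha, the main nuclear estrogen receptor of the preoptic area. Its log2 signal was lowest at 5.79, 6.81 at the median and 7.52 at the highest in XXY males, and 6.33, 6.83 and 7.19 in XX females. In XX males the lowest, median and highest values were 5.95, 6.80 and 6.99, and in XY males they were 6.48, 6.64 and 7.18. The ranges of the 4 groups overlapped, and the highest and the lowest array of all were both XXY males.

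The group means of Esr1 were 6.64 ± 0.58 (SD, n = 8) in XXY males, 6.80 ± 0.28 (n = 8) in XX females, 6.65 ± 0.37 (n = 7) in XX males and 6.68 ± 0.23 (n = 8) in XY males. No neighbours in this order differed beyond their spread. XXY minus XY males gave -0.04 (95% interval -0.42 to 0.35, adjusted p = 1), so that a fall to 0.746-fold or a rise to 1.27-fold lies within the interval, and leaving out XXY male 3 or XXY male 1 moved it to -0.16 or 0.09. The largest difference was that of XX females minus XX males, 0.16 (-0.24 to 0.56, adjusted p = 0.879), and within the batches it was 0.33 and -0.25. It was 0.04 without XX male 2, 0.24 without XX male 7 and 0.17 without XX male 6. The SD in XXY males was over that in each other group, but a difference in spread was not tested.

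Pgr encodes the nuclear progesterone receptor, a target of estrogen in this region. The probe was dim, and it was detected on 29 of 31 arrays, all but 1 XX female and 1 XY male. The lowest, median and highest log2 signals were 5.57, 5.79 and 6.38 in XXY males and 5.41, 6.03 and 6.33 in XX females. They were 5.50, 5.91 and 6.11 in XX males and 5.44, 5.88 and 6.62 in XY males. All groups began within a narrow range of low values, and the XY males reached highest.

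The means of Pgr were 5.86 ± 0.26 in XXY males, 5.99 ± 0.30 in XX females, 5.80 ± 0.23 in XX males and 6.00 ± 0.41 in XY males. XX females minus XY males gave 0.00 (95% interval -0.29 to 0.28), and the XX males were the lowest group. XX females minus XX males gave 0.22 (-0.08 to 0.51, adjusted p = 0.767), with 0.42 in batch 1 and -0.22 in batch 2, so that the sign changed with the batch, and it was 0.16 without array XX male 6. XX minus XY males gave -0.22 (adjusted p = 0.894), with -0.36 in batch 1 and 0.10 in batch 2. These batch values count array XX male 6, which with XX male 1 was lowest of the XX males at 5.50, in batch 1 as labelled. The change of sign in XX minus XY males may depend on that label. The value over both batches was -0.16 without array XX male 6 and -0.14 without XY male 1.

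Gper1 encodes a G protein-coupled receptor of the cell membrane that responds to estradiol. Its log2 signals ran from 6.48 over a median of 6.84 to 7.19 in XXY males and from 6.41 over 6.65 to 7.10 in XX females. They ran from 6.51 over 6.76 to 6.96 in XX males and from 6.46 over 6.85 to 7.15 in XY males. The ranges of the groups overlapped, and the probe was detected on all 31 arrays. The largest difference, XXY males minus XX females, was 0.12 (95% interval -0.10 to 0.35, adjusted p = 0.959), and it was 0.32 in batch 1 and -0.20 in batch 2. Without XXY male 1 it was 0.07, and without XX female 7 it was 0.18.

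Esrra encodes estrogen-related receptor alpha, which resembles the estrogen receptors but binds no estrogen and acts on genes of mitochondrial metabolism. The lowest, median and highest log2 signals were 9.57, 9.82 and 9.93 in XXY males and 9.53, 9.92 and 10.31 in XX females. They were 9.77, 9.90 and 10.52 in XX males and 9.46, 9.96 and 10.20 in XY males. No XXY male exceeded 9.93, while each of the other groups had arrays above 10.1, yet the groups overlapped in their lower range.

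Esrra averaged 9.79 ± 0.13 in XXY males, 9.93 ± 0.27 in XX females, 9.99 ± 0.28 in XX males and 9.92 ± 0.25 in XY males. XXY minus XX males gave -0.23 (SE 0.0950, 95% interval -0.42 to -0.03), or 0.855-fold, with an unadjusted p of 0.0241 and an adjusted p of 0.748. It was -0.15 in batch 1 and -0.35 in batch 2, and -0.22 without array XX male 6. XXY minus XY males (-0.13) and XXY males minus XX females (-0.14) had the same sign in both batches, with most of each difference in batch 2, at -0.29 and -0.34. XX males 7 and 8 moved the XXY minus XX male value between -0.28 and -0.16 when left out. In the same comparison the measured markers of cortex and hippocampus were below zero for 6 of 6 genes (median -0.16) and those of striatum had 1 of 7 above zero (median -0.31), none of them called. Other lists differed in that comparison too, also with none called. Genes of meninges were above zero for 6 of 6 (median 0.45), of blood for 3 of 3 (median 0.32) and of thalamus for 2 of 8 (median -0.18). The part of these lists in the Esrra value was not tested. The gene is also the member that differed most between the batches.

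**Figure D2:**
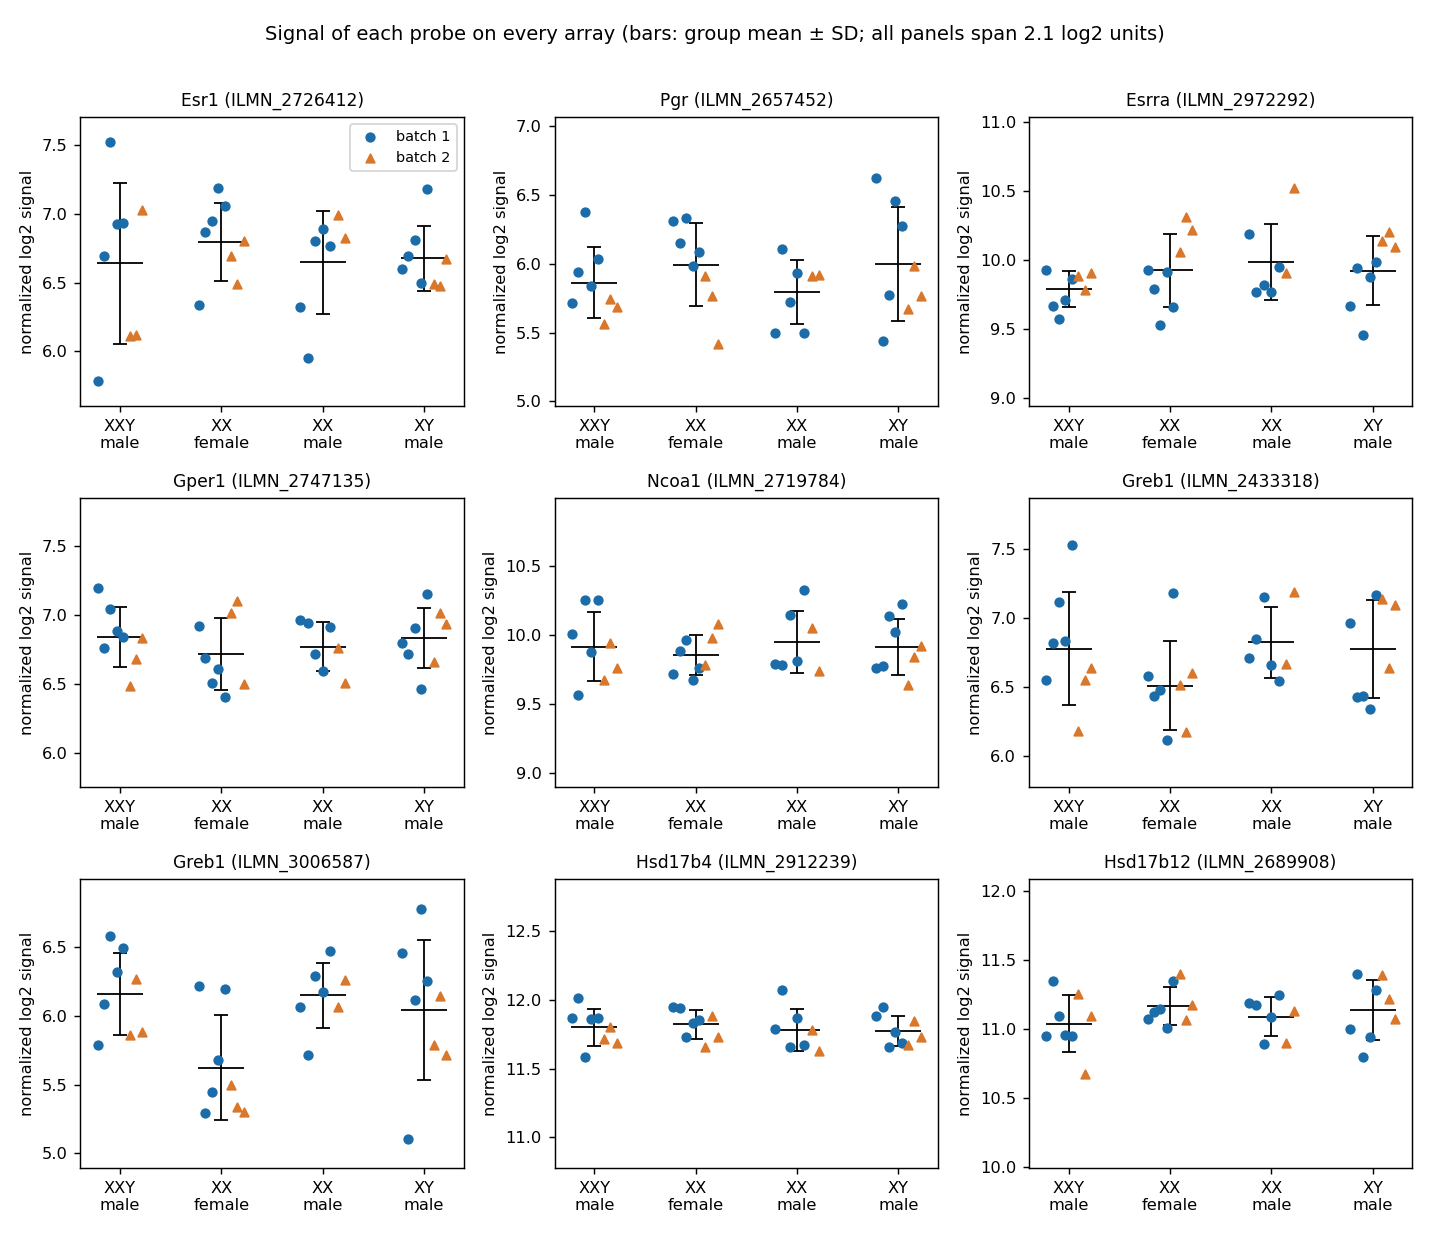
Normalized log2 signal of the 9 probes on each of the 31 arrays by group, with batch 1 as circles, batch 2 as triangles, and bars for the group mean ± SD. The groups overlap for every probe, and XX females have the lowest mean on both Greb1 probes, at 6.51 and 5.62.

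Ncoa1 encodes SRC-1, a coactivator that estrogen and progesterone receptors recruit. Its log2 signals ran from 9.57 over a median of 9.91 to 10.25 in XXY males and from 9.67 over 9.84 to 10.08 in XX females. They ran from 9.74 over 9.81 to 10.32 in XX males and from 9.63 over 9.88 to 10.22 in XY males. The 4 group means lay within 0.09 log2 units of each other, less than the SD of any group. XXY minus XY males was 0.00, with a 95% interval of -0.21 to 0.21, or 0.864-fold to 1.16-fold. XX females minus XX males, the largest of the 7, was -0.09 (adjusted p = 0.883), and it was -0.03 without array XX male 6.

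Greb1 was first described as a gene that estrogen induces in breast cancer cells, and its protein is a cofactor of estrogen receptor alpha. Of its 2 probes the brighter, ILMN_2433318, stands for the gene in the comparisons. Its lowest, median and highest log2 signals were 6.18, 6.73 and 7.53 in XXY males and 6.11, 6.49 and 7.18 in XX females. They were 6.54, 6.71 and 7.19 in XX males and 6.34, 6.80 and 7.16 in XY males. Most XX females sat low, with 7 of 8 below the median of all arrays, and a single one, replicate 5, reached into the upper range of the males.

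On this probe XX females averaged 6.51 ± 0.33 and differed from the mean of the groups with testes by -0.28 (SE 0.137, 95% interval -0.56 to 0.00). The unadjusted p was 0.0502 and the adjusted p 0.875. The difference was -0.25 in batch 1 and -0.35 in batch 2. XX females minus XX males gave -0.31 and XX females minus XY males -0.27, the latter with -0.11 in batch 1 and -0.53 in batch 2. XXY minus XY males gave 0.00, with 0.30 in batch 1 and -0.50 in batch 2, so that the sign changed with the batch. The XXY males averaged 6.78 ± 0.41, the XX males 6.82 ± 0.26 and the XY males 6.77 ± 0.35.

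The second probe, ILMN_3006587, is dimmer and was detected on 25 of 31 arrays: on 8 of 8 XXY males, 4 of 8 XX females, 6 of 7 XX males and 7 of 8 XY males. Its lowest, median and highest log2 signals were 5.78, 6.18 and 6.57 in XXY males and 5.29, 5.47 and 6.22 in XX females. They were 5.71, 6.17 and 6.47 in XX males and 5.11, 6.13 and 6.78 in XY males. Of the XX females, 6 of 8 lay below the median of all arrays, and the lowest array was an XY male.

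The means on the second probe were 6.16 ± 0.30 in XXY males, 5.62 ± 0.38 in XX females, 6.15 ± 0.24 in XX males and 6.04 ± 0.51 in XY males. In a fit over all 14989 probes, in which 0.04% were called in the same comparison, XX females minus the groups with testes was -0.49 (SE 0.143, 95% interval -0.78 to -0.20), or 0.713-fold. The unadjusted p was 0.00187 and the adjusted p 0.571, so that this difference did not pass either. It was -0.41 in batch 1 and -0.64 in batch 2. XXY males minus XX females gave 0.54 (adjusted p = 0.761) and XX females minus XX males -0.51 (adjusted p = 0.731). Without array XX male 6 the difference of XX females from the groups with testes was -0.47 on this probe and -0.30 on the brighter one.

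Since 4 of 8 XX females were undetected on the second probe, part of its values there are at background. Without background correction the difference of XX females from the groups with testes was -0.15 on this probe and -0.12 on the brighter one. Over the arrays, with group and batch removed, the 2 probes were only weakly related (Pearson r = 0.31, permutation p = 0.0947, Spearman rho = 0.26, permutation p = 0.152). Within the batches r was 0.37 and 0.07, and it was 0.18 without the 2 arrays farthest from the median. Whether they report the same transcripts was not tested.

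Of the marker lists, Greb1 on its brighter probe was most related to the 8 measured of 13 genes of other hypothalamic regions, with r = -0.42 (permutation p = 0.0174, adjusted p = 0.195) and rho = -0.42 (permutation p = 0.0211, adjusted p = 0.253). It was -0.53 in batch 1, -0.16 in batch 2 and -0.47 without the 2 farthest arrays. The mean of that list ranged from -1.51 to 1.19 log2 units about its average in XXY males, -1.25 to 1.13 in XX females, -1.10 to 0.53 in XX males and -1.85 to 1.01 in XY males. The groups overlapped, with group means of 0.11 in XXY males, 0.17 in XX females, -0.45 in XX males and 0.11 in XY males. The part of this list in the Greb1 values was not tested.

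**Figure D3:**
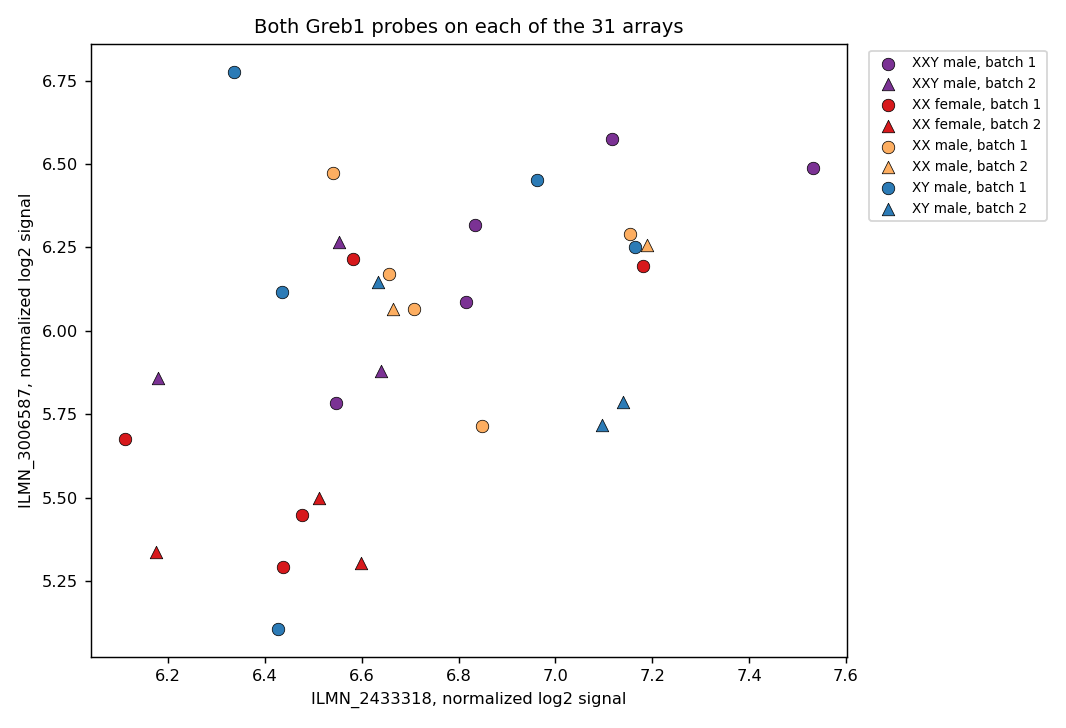
Normalized log2 signals of the brighter Greb1 probe (x axis) and the dimmer one (y axis) on the 31 arrays, coloured by group, with circles for batch 1 and triangles for batch 2. XX females (red) gather at low values of both, with 2 of them, replicates 1 and 5, at 6.22 and 6.19 on the y axis, among the males.

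Hsd17b4 encodes the D-bifunctional protein of peroxisomes, which shortens very long fatty acids and can oxidise estradiol. It was the most even of the 8 genes. Its log2 signals ran from 11.58 over a median of 11.83 to 12.01 in XXY males and from 11.65 over 11.84 to 11.94 in XX females. They ran from 11.63 over 11.78 to 12.07 in XX males and from 11.66 over 11.74 to 11.95 in XY males. The group means spanned 0.05 log2 units. Over the 7 comparisons the differences lay between -0.02 and 0.05, and all intervals together lay between 0.899-fold and 1.14-fold.

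Hsd17b12 encodes an enzyme of the endoplasmic reticulum that acts in the elongation of very long fatty acids and can convert estrone to estradiol. Its lowest, median and highest log2 signals were 10.67, 11.02 and 11.35 in XXY males and 11.01, 11.13 and 11.40 in XX females. They were 10.89, 11.13 and 11.24 in XX males and 10.79, 11.14 and 11.40 in XY males. The ranges overlapped, but 4 of the 8 XXY males lay below the lowest XX female. The largest difference was that of XXY males minus XX females, -0.13 (95% interval -0.32 to 0.06, adjusted p = 0.950), with -0.08 in batch 1 and -0.21 in batch 2. Without XXY male 7 it was -0.07.

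More genes differed between the batches than between the groups. In batch 2 minus batch 1, 2 of the 8 genes passed the threshold, in a comparison that called 44.7% of all genes. Esrra rose by 0.30 log2 units (95% interval 0.16 to 0.44, adjusted p = 0.000698), with means of 10.09 in batch 2 and 9.80 in batch 1. Pgr fell by 0.26 (-0.47 to -0.04, adjusted p = 0.0448), with means of 5.76 in batch 2 and 6.00 in batch 1. The other 6 genes lay between -0.13 for Esr1 and 0.02 for Hsd17b12, with adjusted p-values of 0.150 for Hsd17b4 to 0.817 for Hsd17b12. The group differences above, other than those within a batch, are from the fit with batch as a term.

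The genes differed in how much arrays of the same group and batch varied. The residual SD was 0.39 log2 units for Esr1, which lay at percentile 91.6 of all probes tested, and 0.35 and 0.36 for the Greb1 probes. It was 0.29 for Pgr, 0.23 for Gper1, 0.21 for Ncoa1, 0.19 for Hsd17b12 and 0.18 for Esrra. For Hsd17b4 it was 0.12, at percentile 9.43, and the median of all probes was 0.24. The standard error between beads of an array had medians of 0.14 for Esr1 and 0.05 for Hsd17b4, below the spread between arrays in both. The precision of a group difference follows from this, since the widest bounds were 0.687-fold and 1.47-fold for Esr1 but 0.899-fold and 1.14-fold for Hsd17b4.

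**Figure D4:**
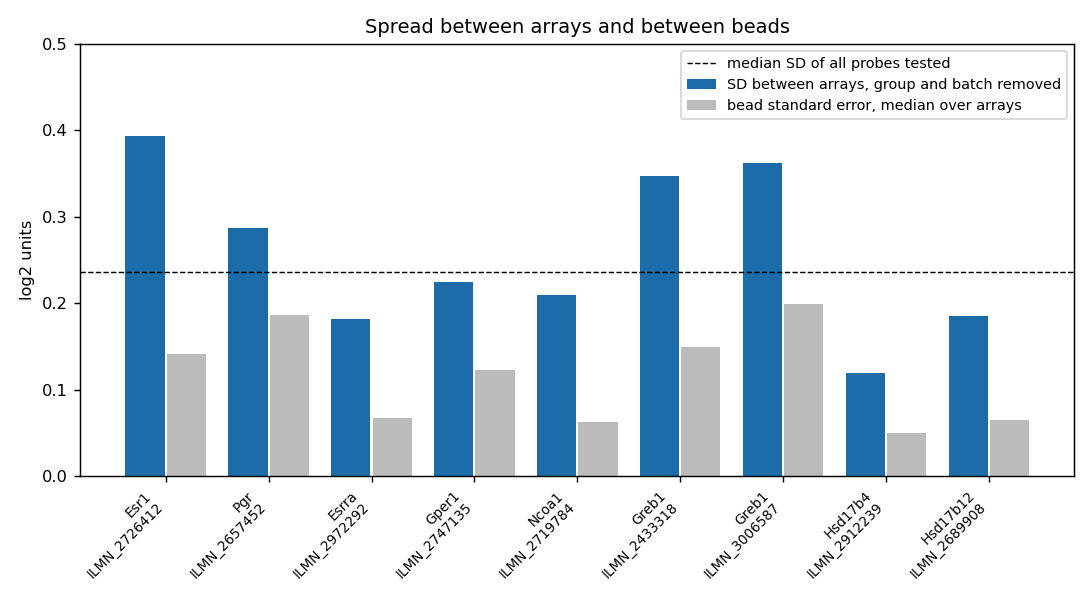
SD between arrays after removal of group and batch (blue) and the median bead standard error (grey) for each of the 9 probes, in log2 units, with the median SD of all probes tested as a dashed line at 0.24. Esr1 and both Greb1 probes exceed the line most, and Hsd17b4 is the lowest at 0.12.

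Across the 31 arrays, with group and batch removed, none of the 28 pairs of these genes passed a Benjamini-Hochberg adjusted permutation p of 0.05. The strongest was Esr1 with Hsd17b4, at Pearson r = -0.52 (permutation p = 0.00285, adjusted p = 0.0543) and Spearman rho = -0.47 (permutation p = 0.00878, adjusted p = 0.137). Within the batches r was -0.58 (n = 20) and -0.29 (n = 11), and without the 2 arrays farthest from the Esr1 median it was -0.45. Ncoa1 with Hsd17b4 had r = -0.50 (permutation p = 0.00388, adjusted p = 0.0543) and rho = -0.46 (permutation p = 0.00976, adjusted p = 0.137). It was -0.75 in batch 1 and 0.46 in batch 2, so that it did not hold in both, and -0.40 without the 2 farthest arrays.

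Esr1 with Greb1 was the highest positive pair, with r = 0.37 (permutation p = 0.0415, adjusted p = 0.291) and rho = 0.37 (permutation p = 0.0389, adjusted p = 0.272). It was 0.34 in batch 1, 0.43 in batch 2 and 0.38 without the 2 farthest arrays. Esr1 with Pgr, receptor and target, had r = 0.17 (permutation p = 0.345, adjusted p = 0.686) and rho = 0.16 (permutation p = 0.380, adjusted p = 0.781). Within the batches that pair had 0.13 and 0.34, and 0.20 without the 2 farthest arrays.

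The same residuals were set against the mean of each of 14 lists of cell type markers, 112 pairs in all, and no pair passed on both coefficients. Esr1 was inversely related to the 9 measured of 10 oligodendrocyte genes, with r = -0.56 (permutation p = 0.00089, adjusted p = 0.0498) and rho = -0.50 (permutation p = 0.00456, adjusted p = 0.170). The within-batch values were -0.50 and -0.73, and the value without the 2 farthest arrays was -0.48. Against the same list Ncoa1 had r = -0.38 and Hsd17b4 had r = 0.38, each with an adjusted permutation p of 0.249. The part of this list in the pairs of Hsd17b4 with Esr1 and Ncoa1 was not tested. The oligodendrocyte list mean ranged from -0.18 to 0.26 log2 units about its average in XXY males, -0.31 to 0.13 in XX females, -0.33 to 0.26 in XX males and -0.10 to 0.26 in XY males, and its part in the Esr1 values was not tested.

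Esrra was positively related to the 6 measured of 11 cortical and hippocampal genes, with r = 0.57 (permutation p = 0.00063, adjusted p = 0.0498) and rho = 0.53 (permutation p = 0.00213, adjusted p = 0.170). It was 0.48 in batch 1, 0.71 in batch 2 and 0.52 without the 2 farthest arrays. That list ranged from -0.56 to 0.33 in XXY males, -0.28 to 0.34 in XX females, -0.38 to 0.80 in XX males and -0.34 to 0.52 in XY males, and array XX male 8, the highest for Esrra, was also the highest of its group for the list. Esr1 and the 9 measured preoptic and BNST genes other than Esr1 and Pgr had r = 0.46 (permutation p = 0.00829, adjusted p = 0.133) and rho = 0.32 (permutation p = 0.0826, adjusted p = 0.381). It was 0.46 in batch 1, 0.47 in batch 2 and 0.39 without the 2 farthest arrays. Other pairs that did not pass had r of larger size. Pgr had -0.52 with striatal genes (adjusted permutation p = 0.108) and 0.47 with septal genes (0.133). Gper1 had 0.47 with blood genes (0.133) and -0.47 with Pomc, the 1 measured pituitary gene (0.133).

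**Figure D5:**
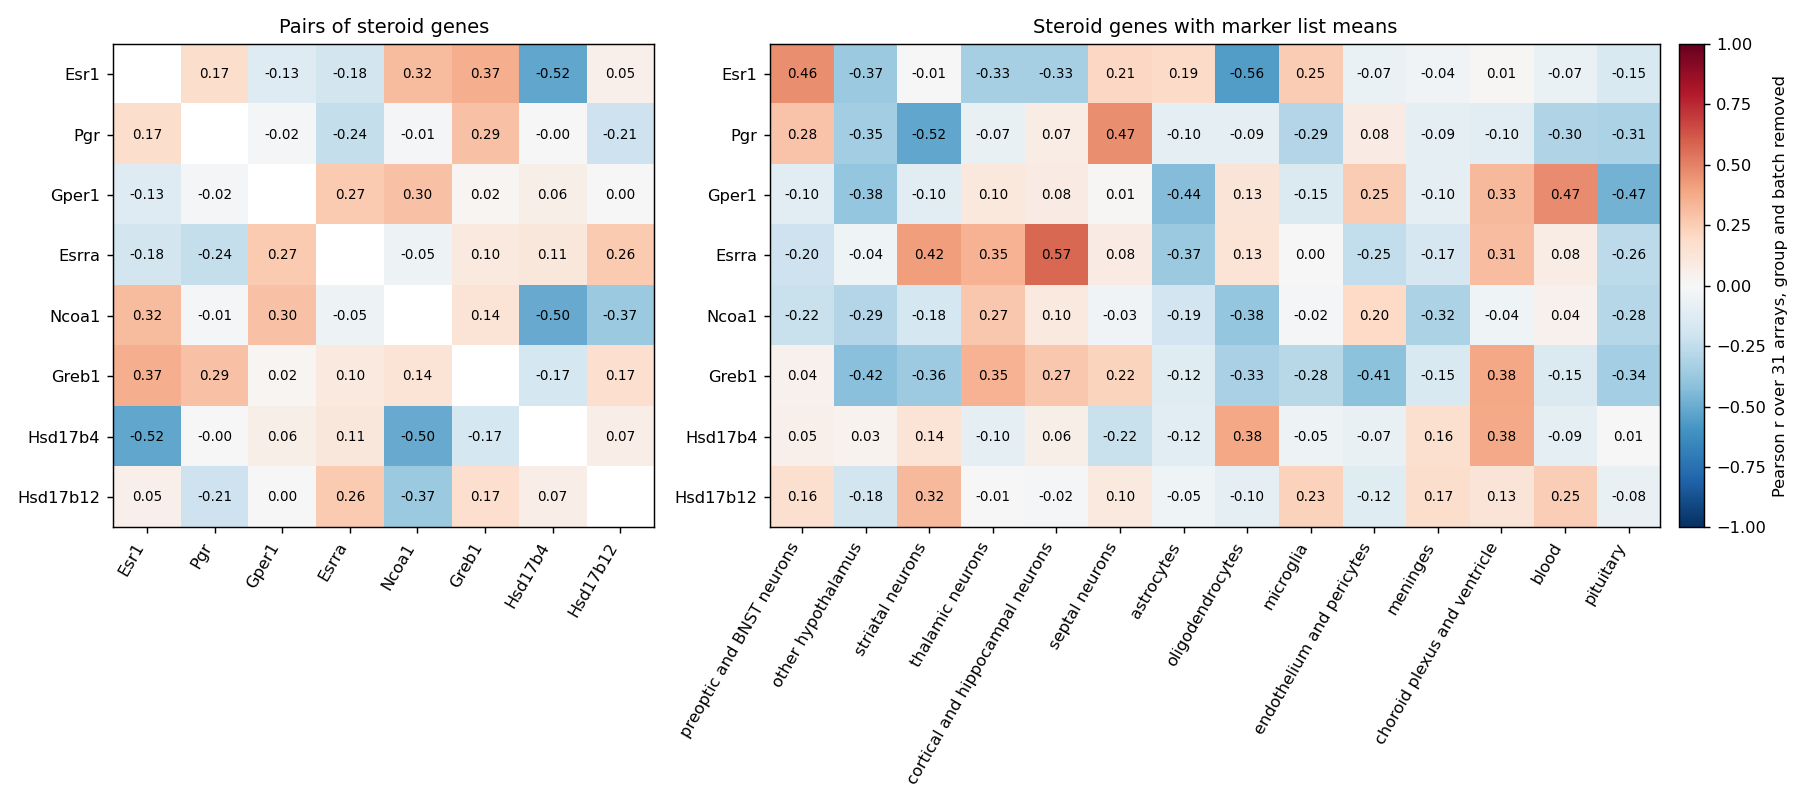
Pearson r over the 31 arrays, with group and batch removed, for pairs of the 8 steroid genes (left) and for each gene with the means of 14 marker lists (right), blue for negative and red for positive. The strongest cells are Esr1 with Hsd17b4 at -0.52 on the left, and Esrra with cortical and hippocampal neurons at 0.57 and Esr1 with oligodendrocytes at -0.56 on the right.

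Among the 8973 named genes, those most like each member over the 31 arrays, by Pearson r with group and batch removed, are given as a description. They share the libraries and the dissection with the member, and they are the top of a ranking over all genes. Esr1 was nearest to Radx (r = 0.84), Mrpl52 (0.78), Cntnap2 (0.77), Rundc3b (0.76) and Nlgn1 (0.76), of which Cntnap2 and Nlgn1 encode cell adhesion proteins of neurons. Ncoa1 was nearest to Zbp1 (0.80), Atp2b2 (0.78), Map3k12 (0.77), Med1 (0.77) and Ap2a2 (0.77), and Med1 encodes a subunit of the Mediator complex that binds nuclear receptors. Greb1 was nearest to Zic4 (0.63), C1ql3 (0.63), Ankmy2 (0.62), Zic1 (0.62) and Dusp6 (0.61), with Zic1 among the listed preoptic markers and Zic4 among the thalamic ones.

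Esrra was nearest to Eif2b4 (r = 0.70), Epop (0.69), Arc (0.69), Dgkz (0.68) and Pdk3 (0.66), where Arc is an activity-regulated gene of neurons. Pgr had Efna5 (0.66), Klhdc10 (0.63), Fam185a (0.63), Tmem255a (0.62) and Fam216b (0.62). Gper1 had Cyp4f14 (0.70), Zdhhc3 (0.67), Cacng5 (0.64), Alas2 (0.60) and Cdc42ep2 (0.60), of which Alas2 makes heme in red blood cells and belongs to the list of blood markers. Hsd17b4 was nearest to Mien1 (0.81), Ctnna1 (0.75), Dmac2l (0.75), Rxylt1 (0.75) and Manba (0.74), and Hsd17b12 to Rpl36a (0.75), Hsp90b1 (0.71), Eif4a2 (0.70), Ezr (0.70) and Timm8a1 (0.70).

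The wider pathway was read from 11 lists of related genes, of which 77 of 133 were measured. No gene of these lists passed the threshold in any of the 7 comparisons, and 47 of 539 tests had an unadjusted p under 0.05, or 8.72%, against 5.27% over all genes. Receptor chaperones, which hold steroid receptors ready to bind hormone, had 8 of 10 measured and 0 called. All 8 were above zero in XX females minus the groups with testes, with a median of 0.10 log2 units against 0.00 over all genes, and 3 had an unadjusted p under 0.05. In XX females minus XX males, which differ in Sry and gonad type but not in sex chromosomes, 5 of 8 were above zero, with a median of 0.03 and 1 unadjusted p under 0.05. In XXY minus XY males 4 of 8 were above zero, with a median of 0.01. XX minus XY males, both with testes, had 7 of 8 above zero, with a median of 0.09 and 2 unadjusted p under 0.05. XXY males minus XX females had 0 of 8 above zero, with a median of -0.15 and 3 such p-values. XXY minus XX males had 1 of 8 above zero, with a median of -0.09. Stip1 averaged 12.92 ± 0.10 in XX females and 12.69 ± 0.11 in XY males, a difference of 0.23 (SE 0.0555, adjusted p = 0.233). Fkbp4 differed by 0.17 in the same comparison (adjusted p = 0.762), and Hsp90aa1 by 0.37 in XX females minus the groups with testes (adjusted p = 0.661).

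Membrane steroid receptors had 5 of 8 measured. Of 35 tests 7 had an unadjusted p under 0.05, against 5.27% over all genes, with 1 such gene in each comparison. In XXY minus XY males, XX females minus XY males and XX females minus the groups with testes that gene was Paqr6. Paqr6, a membrane progestin receptor, averaged 8.88 ± 0.29 in XXY males, 8.11 ± 0.44 in XX females, 8.48 ± 0.45 in XX males and 8.48 ± 0.28 in XY males. XX females minus the groups with testes was -0.51 (SE 0.148, adjusted p = 0.499), and XXY minus XY males was 0.40 (adjusted p = 1), of which 0.12 in batch 1 and 0.87 in batch 2. Of the estrogen-related receptors 2 of 3 were measured, and Esrrb, the relative of Esrra, had 0.30 in XX females minus XY males (SE 0.0981, adjusted p = 1), with 0.25 and 0.38 in the batches.

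The lists around the enzymes gave small values. The 17-beta-hydroxysteroid dehydrogenases had 6 of 12 measured and no unadjusted p under 0.05 in 42 tests, with list medians between -0.03 and 0.04. Steroid synthesis and metabolism had 8 of 25 measured and 3 of 56 tests under 0.05. In it Hsd3b2, of the family that makes progesterone from pregnenolone, averaged 10.90 ± 0.46 in XX females and 11.31 ± 0.26 in XY males, a difference of -0.41 (adjusted p = 1). Of the peroxisomal partners of Hsd17b4, 10 of 14 were measured with 4 of 70 tests under 0.05, among them Acaa1a, a thiolase, at -0.19 in XXY minus XY males (adjusted p = 1).

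Fatty acid elongation, the pathway of Hsd17b12, had 10 of 12 genes measured and 6 of 70 tests under 0.05. Hacd2, which dehydrates the hydroxyacyl intermediate of that cycle, averaged 7.84 ± 0.24 in XX females, 7.48 ± 0.15 in XX males, 7.54 ± 0.15 in XXY males and 7.47 ± 0.25 in XY males. XX females minus the groups with testes was 0.35 (SE 0.0848, adjusted p = 0.360), with 0.39 in batch 1 and 0.27 in batch 2. Hacd2 is named for its low p within its list. Over 31 refits that each left out 1 array, the value ran from 0.31 to 0.41. The lowest adjusted p of these refits was 0.0308, without XX female 7, where the value was 0.41. Under 11 other settings with all arrays the adjusted p was 0.238 to 0.573.

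The last lists held the receptors and their targets. The nuclear steroid receptors had only Esr1 and Pgr measured of 6. Coregulators had 10 of 18 measured, with 2 of 70 tests under 0.05 and medians between -0.04 and 0.01. The estrogen-responsive genes had 8 of 15 measured and 3 of 56 tests under 0.05. In it Igf1r, the receptor of insulin-like growth factor 1, averaged 6.99 ± 0.34 in XXY males and 7.32 ± 0.46 in XY males, a difference of -0.33 (SE 0.107, adjusted p = 1). Igfbp2, a binding protein of that factor, averaged 8.25 ± 1.04 in XXY males and 7.41 ± 0.99 in XY males. The difference of 0.85, with an interval of -0.06 to 1.75, did not pass the threshold. In XXY minus XY males, 6 of 6 measured meningeal markers were above zero (median 0.66) and 3 of 3 blood markers (median 0.40). Thalamic markers had 2 of 8 above zero (median -0.16). None of these markers was called, and their part in the Igfbp2 value was not tested. The mitochondrial targets of estrogen-related receptors had 9 of 12 measured and 6 of 63 tests under 0.05. They were led by Pdk4, a kinase that slows glucose oxidation, at 0.42 in XX females minus the groups with testes (adjusted p = 0.818). The Pdk4 value was 0.27 without XX female 8 and 0.54 without XX female 6.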

How the data were processed

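The arrays measured transcripts in BNST/POA tissue of 4 groups (31 arrays). For each probe and array the deposited scanner table gives an intensity, the mean over beads, which is linear and not normalized as far as the file headers say. It also gives a deposited detection p-value. Its bead standard error, in units of signal per the file headers, and its number of beads were read as checks of precision. The authors' processed table, an alternative here, holds log2 values of 12980 probes, whose scale was found by comparison (correlation 0.997 with the values made here). Its columns all had a median of 8.65 and 31 cells were empty. Which batch correction or centring made it is not given in the sources used here. The submitters' processing notes name limma. No columns of per-sample values were left unused.

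Intensities were background-corrected, quantile-normalized and put on the log2 scale by the neqc function (limma 3.58.1, R 4.3.3, offset 16, background from the detection p-values). Probes with a detection p under 0.05 on at least 7 arrays were kept. Probe names came from platform annotation updated through RefSeq: 12250 probes had 1 symbol and 0 had several, 5 symbols were updated, 1 was not matched and 13447 probes have no name here. The brightest probe by mean stands for a gene, and an unnamed probe for itself. A single limma fit over the 31 arrays had group and batch as terms, and 7 contrasts were tested two-sided with Benjamini-Hochberg adjustment at 0.05. Levels are means before batch removal, which set no probe against another. The number of arrays limits the precision. Correlations used 100000 permutations, two-sided, in Python 3.11.15. None of the 465 pairs of arrays held identical values.

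The genes, lists and comparisons were chosen with earlier results of these data known. Named genes are the 8 members with every probe, the 2 genes of lowest p per pathway list in 3 comparisons (all between -0.51 and 0.85 log2 units, the largest given above), the 5 genes most like each member, and Xist, Eif2s3x and Kiss1 as checks. The fits were tested on simulated data. Replicate numbers were not taken as a pairing in the main fit, and whether they pair the samples was not settled. Deviations of 42 same-numbered pairs of arrays correlated at 0.05 on average (lowest -0.24, highest 0.31), and those of 153 others at -0.05. For 16 arrays the best match was an array of their own number.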

Additional observations from a re-analysis of the deposited data

Results flagged for a closer look

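Gaps within groups were tested for each of the 9 probes in 4 groups, 36 tests in all, and by chance about 5% of such groups hold an array that stands apart this far. In 2 of them 1 array did. Esr1 in XY male replicate 5 had a log2 signal of 7.18, against 6.81 in the nearest of the other XY males and 6.48 in the lowest, a gap of 0.527 of the range of 8 arrays. Greb1 on its brighter probe had 7.18 in XX female replicate 5, against 6.60 in the nearest of the other XX females and 6.11 in the lowest, a gap of 0.545 of the range. Without that array the Greb1 difference of XX females from the groups with testes was -0.38 in place of -0.28.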

How the results depend on the processing

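The 56 differences of the 8 genes were computed under 12 other settings and without each of the 31 arrays in turn, 2400 values in all. None passed the threshold. The lowest adjusted p was 0.401, for Esrra in XXY minus XX males without XX male replicate 7. The sign never changed for 37 differences, and the 19 that changed sign were at most 0.05 log2 units in size. The median difference of all genes was at most 0.01 in size in any comparison under any setting. Leaving out each array gave -0.38 to -0.22 for the brighter Greb1 probe and -0.56 to -0.43 for the dimmer one in XX females minus the groups with testes. With the replicate number as a block, these were -0.27 (adjusted p = 0.6) and -0.51 (adjusted p = 0.313), and the block changed no call of the 8 genes. With the submitters' processed values the correlations passed the adjusted threshold for Esr1 with Hsd17b4 at -0.514 (adjusted p = 0.0447) and Ncoa1 with Hsd17b4 at -0.519 (adjusted p = 0.0447), and the cause was not tested. Hsd17b14, dim and uncalled, gave -0.013 to 0.14 in XXY minus XY males, the lowest without XY male replicate 4. Signals near background limit Pgr and the dimmer Greb1 probe. Without background correction the brighter Greb1 probe, detected on all 31 arrays, also gave -0.12 in place of -0.28. For scale, Kiss1 in XX females minus the groups with testes ran from 0.61 to 1.12 over the settings that kept all arrays.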
